A study of Mus musculus with 8 samples.

Results

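The 10 genes described here are Trem2, Spp1, Gpnmb, Apoe, Fabp5, Lpl, Mmp12, Lgals3, Ctsk and Cd63, a list known from macrophages that load lipid and gather in scarred tissue. The list was chosen with earlier results of these data known, and its members, taken by name, are 10 of the 17921 genes in the deposited table of single cells. Their transcripts were counted in 20778 cells of 8 left lung grafts, of which 2494 were labelled alveolar macrophages (AMs), 1968 monocytes and 755 myeloid cells by the authors. Every recipient was a male C57BL/6 (B6) mouse that underwent orthotopic left lung transplantation (LTx), received no immunosuppression and was killed 1 month later. In the B6→B6 group (5 mice, called controls 1 to 5 below) the donor was B6 too, and these grafts are the non-rejected controls. In the HLA→B6 group (3 mice) the donor was an HLA mouse, which carries the human HLA-A2 transgene Tg(HLA-A2.1)1Enge on the C57BL/6 background, and these grafts develop bronchiolitis obliterans syndrome (BOS), the main form of chronic lung allograft rejection. About 10000 cells per graft were loaded for droplet sequencing of transcript 3′ ends, and 1 mouse is 1 library, so the p values below measure the spread between mice. The comparison asked how the 10 genes differ between grafts with and without BOS, and in which cells.

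Macrophages that take up lipid and debris in injured tissue turn on genes for lipid handling, lysosomal breakdown and matrix remodelling. Cells with high Trem2, Spp1 and Gpnmb have been described around fatty liver lesions, atherosclerotic plaques and lung scars. In the lung, resident AMs live on the airway side and clear surfactant lipid, so some lipid genes of the list are also part of their normal state. By role, Trem2 is a surface receptor for lipids and lipoproteins, Gpnmb is a transmembrane glycoprotein of macrophages and melanocytes, and Cd63 is a tetraspanin of late endosomes and granules. Spp1 encodes osteopontin, a secreted ligand of integrins and CD44, Lgals3 encodes the β-galactoside-binding lectin galectin-3, and Apoe encodes the main carrier protein of cholesterol that leaves macrophages. Lpl is the lipase that splits triglycerides outside the cell, and Fabp5 carries fatty acids inside it. Mmp12 is macrophage elastase, and Ctsk is cathepsin K, a lysosomal protease that cuts collagen and elastin.

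In GENCODE vM21 coordinates (GRCm38, which is mm10), Trem2 lies on chromosome 17 (48346401 to 48354147), Gpnmb on chromosome 6 (49036546 to 49070929) and Spp1 on chromosome 5 (104435118 to 104441050), each on the plus strand. The remaining genes lie on chromosomes 3 (Fabp5 and Ctsk), 7 (Apoe), 8 (Lpl), 9 (Mmp12), 10 (Cd63) and 14 (Lgals3). RefSeq promoters (GRCm38.p6) were at hand for 8 of the 10 genes, 12 promoters in all, and not for Fabp5 and Lpl. The 250 bases before the start are shown for the 3 genes whose joint detection is examined below, with the letters of a motif match in capitals: TGANTCA, the AP-1 letters, 9 bases before the start of Trem2 (chr17:48346151-48346400, plus strand) and GAGGAAGT, a PU.1 core, 113 bases before the start of Spp1 (chr5:104434861-104435110, plus strand). Gpnmb (chr6:49036268-49036517, plus strand) held no match.
Trem2: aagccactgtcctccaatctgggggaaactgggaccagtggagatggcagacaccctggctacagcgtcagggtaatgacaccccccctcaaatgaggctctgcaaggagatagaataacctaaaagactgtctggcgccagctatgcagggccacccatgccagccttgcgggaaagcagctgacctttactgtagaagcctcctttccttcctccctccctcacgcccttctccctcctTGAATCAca
Gpnmb: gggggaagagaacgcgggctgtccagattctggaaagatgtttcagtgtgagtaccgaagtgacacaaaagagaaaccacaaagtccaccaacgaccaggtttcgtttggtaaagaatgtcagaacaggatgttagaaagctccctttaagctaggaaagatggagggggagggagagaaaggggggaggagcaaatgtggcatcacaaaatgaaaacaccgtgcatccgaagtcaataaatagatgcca
Spp1: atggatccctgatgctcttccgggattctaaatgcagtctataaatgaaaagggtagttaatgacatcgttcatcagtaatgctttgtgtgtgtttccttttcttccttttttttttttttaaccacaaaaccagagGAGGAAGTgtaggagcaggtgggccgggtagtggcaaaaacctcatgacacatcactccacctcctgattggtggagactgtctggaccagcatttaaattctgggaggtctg
Both strands were searched for 4 motifs. TGANTCA occurred in 2 of the 12 promoters of the listed genes (Trem2 and Mmp12) and in 6.75% of all 32851 promoters of this length, and GAGGAAGT in 2 (Spp1 and Mmp12) and in 2.44% of all. CATGTG, the letters of an M-box core, occurred in 1 promoter (Mmp12) against 12.3% of all, and the E-box CACGTG in 0 against 6.02%. The matches are letters in these windows and carry no measurement of binding.

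Total counts ran from 1669076 to 12445769 unique molecular identifiers (UMIs, each a counted transcript molecule) per mouse, with a median of 1356 to 1948 UMIs per cell. AMs numbered 105 to 685 per B6→B6 mouse and 130 to 514 per HLA→B6 mouse, and their median depth ranged more widely, from 803 to 7144 UMIs per cell, with the deepest AMs in HLA→B6 mouse 2. Cell barcodes recurred between libraries: 459 barcodes occurred in more than 1 mouse, mostly among controls 1 to 3 and HLA→B6 mouse 2, so results are also given without the 793 cells that this touches. Controls 1 to 3 and HLA→B6 mouse 2 are called linked libraries below and the remainder unlinked, a division that no sample label gives. Unlinked libraries shared barcodes too, for example 30 between control 4 and HLA→B6 mouse 1. The AM label was checked against 15 AM markers, which had UMIs in AMs of both groups with none at 0. Their summed level was 12641 to 15507 CPM (the UMIs of a gene scaled to 1000000 UMIs of the same cells) in B6→B6 and 1203 to 5699 CPM in HLA→B6, and 8 of the 15 fell. In HLA→B6 grafts the label thus goes with a much lower level of AM markers, and AMs below means cells with that label.

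Transcripts of the list came mostly from cells labelled AMs. Of all UMIs of a gene, summed over the 8 mice, cells labelled AMs held 98.2% for Gpnmb, 97.9% for Mmp12, 94.4% for Trem2, 93.9% for Ctsk, 92.2% for Fabp5, 88.8% for Spp1 and 87.8% for Cd63. The share was lower for Lpl (80.6%), Apoe (80.5%) and Lgals3 (71.2%), of which other cells held a part. Among types with at least 10 cells in a mouse, the mean level was highest in AMs for 9 of the 10 genes. The exception was Cd63, which averaged 2926 CPM in mast cells, where it marks granules, against 1268 CPM in AMs, and it was higher in mast cells in each of the 3 mice with enough of both.

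Trem2 fell into 3 steps, at 398 CPM in AMs, 51.8 CPM in monocytes and 5.05 CPM or less elsewhere. AMs were above monocytes in 8 of 8 mice and monocytes above the cells labelled leukocytes in 7 of 7, with ranges that did not overlap, whereas leukocytes, structural cells, myeloid cells and T cells did not differ in order beyond their spread. Gpnmb went from 997 CPM in AMs to 20.9 CPM in structural cells, and Spp1 from 1189 to 59.0 CPM, with AMs higher in 8 of 8 mice for both. Lgals3 was shared more widely, at 3331 CPM in AMs, 1973 CPM in monocytes (AMs above them in 7 of 8 mice), 1293 CPM in mast cells and 843 CPM in myeloid cells. For Apoe the order of AMs (9514 CPM) and monocytes (4269 CPM) did not hold beyond the spread, since AMs were higher in 5 of 8 mice only.

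**Figure D1:**
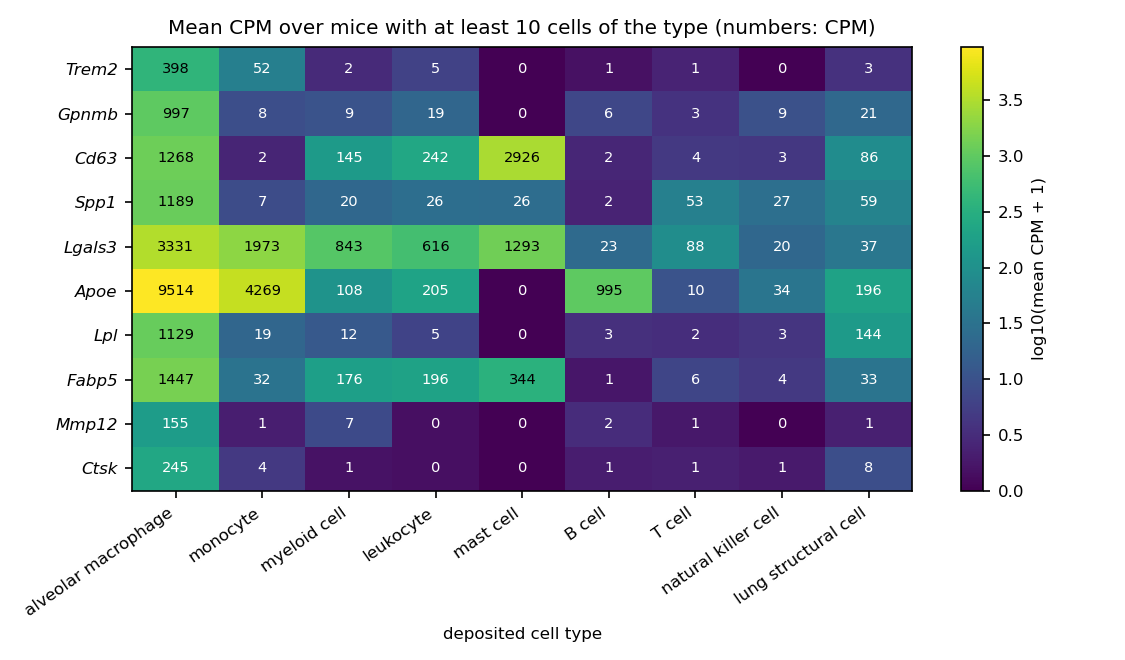
Mean level of the 10 genes over mice of both groups, printed as CPM and coloured by log10(CPM + 1), in each deposited cell type, counting mice with at least 10 cells of it. AMs have the highest level of 9 genes, and mast cells that of Cd63; Apoe and Lgals3 are also high in monocytes.

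Structural cells and B cells held a few of the genes, described here by pooled cells or by mouse without a test. Fibroblasts and smooth muscle cells (345 cells) had 1774 CPM of Apoe, 874 CPM of Spp1 and 619 CPM of Cd63. Lpl was at 365 CPM in the MHC II+ endothelial cells, and Cd63 was at 889 CPM in the 32 Prox1+ endothelial cells, a lymphatic marker. Krt8+ epithelial cells (68 cells) had 568 CPM of Lgals3 and 456 CPM of Cd63. In B cells Apoe stood at 0, 419.7, 387, 518 and 102 CPM in controls 1 to 5 and at 2075, 3405 and 1051 CPM in HLA→B6 mice 1 to 3. All 3 HLA→B6 grafts were above all 5 B6→B6 grafts in that type, while in T cells Apoe was at 50.9 CPM or less in every graft. The share of all genes without overlap was not counted in B cells.

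In AMs of HLA→B6 grafts, 7 of the 10 genes rose (Trem2, Gpnmb, Cd63, Spp1, Lgals3, Fabp5 and Mmp12), 1 fell (Ctsk), and Apoe and Lpl did not pass the test, by edgeR's quasi-likelihood test on counts summed per mouse with Benjamini-Hochberg adjusted p under 0.05 over all 5798 genes tested. Of all genes tested, 6.36% rose and 5.92% fell. The median log2 fold change was 1.62 over the 10 genes and -0.03 over all genes. All 10 passed the filter on low counts. Every HLA→B6 mouse lay above every B6→B6 mouse for 7 genes, against 5.14% of all genes, and below for 2, against 17.7%.

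Of the surface and endosomal proteins, Trem2 was at 201, 340.3, 146, 179.9 and 108 CPM in controls 1 to 5 and at 617, 834 and 755 CPM in HLA→B6 mice 1 to 3. The lowest HLA→B6 graft was thus above the highest control. Means were 195 ± 88.4 CPM (SD, n = 5) and 735 ± 110.1 CPM (SD, n = 3), and Trem2 rose by a log2 fold change of 2.14 (SE 0.31), with an adjusted p of 0.0056 by edgeR. Gpnmb was at 518, 827, 169, 191 and 249 CPM in the controls and at 1314, 3585 and 1125 CPM in HLA→B6 grafts. HLA→B6 mouse 2 stood far above the other two, and controls 1 and 2 above the other controls, yet the groups did not overlap. Gpnmb rose by a log2 fold change of 2.62 (SE 0.56), with an edgeR adjusted p of 0.0166. For Cd63 the controls gave 1068, 1505, 287, 597 and 508 CPM and the HLA→B6 grafts 1835, 2813 and 1530.3 CPM. Control 2 came within reach of HLA→B6 mouse 3 without overlap, and Cd63 rose by 1.61 (SE 0.45) on the log2 scale, with an edgeR adjusted p of 0.041.

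Among the secreted proteins, Spp1 stood at 989, 933, 492, 872 and 699 CPM in controls 1 to 5 and at 1606, 2114 and 1810.1 CPM in HLA→B6 mice 1 to 3. Both groups were tight and apart, with means of 797 ± 202 CPM (SD, n = 5) and 1843 ± 256 CPM (SD, n = 3). Spp1 rose by a log2 fold change of 1.44 (SE 0.24), and the edgeR adjusted p was 0.00719. Lgals3 was at 3208, 3246, 2207, 2495 and 2641 CPM in controls and at 3607, 5012 and 4236 CPM in HLA→B6 grafts. This already abundant lectin gained less than the others but without overlap, and rose by 0.87 (SE 0.20) on the log2 scale, with an edgeR adjusted p of 0.0219.

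Apoe had the widest gap between groups and the widest spread within one. It was at 2743, 6457, 5317, 899 and 25.1 CPM in controls 1 to 5 and at 23395, 17956 and 19323 CPM in HLA→B6 mice 1 to 3. The 3 HLA→B6 grafts lay close together, whereas the controls ran from almost no Apoe in control 5 to a clear level in controls 1 to 3. The log2 fold change was 2.92 (SE 0.96) with an edgeR adjusted p of 0.0709, which misses the threshold, although the groups did not overlap (exact permutation p = 0.0357, two-sided, the smallest that 3 against 5 mice allow). Among cells, the 10% of AMs with the most Apoe held 71.6, 69.3, 92.4, 100 and 100% of its UMIs in controls 1 to 5, and 61.4, 44.5 and 64.8% in the HLA→B6 grafts. In control 3 nearly all Apoe thus came from those cells. In controls 4 and 5 the 100% was fixed in advance, since fewer than 10% of AMs had an Apoe UMI. Before thinning, 32.7, 48.6, 17.4, 1.90 and 3.81% of AMs in controls 1 to 5 had an Apoe UMI, against 61.6, 81.7 and 72.3% in HLA→B6 mice 1 to 3. The authors named Apoe among the macrophage genes that report free RNA to their correction program, SoupX.

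The lipid genes went apart. Fabp5 was at 801, 1555, 655, 602 and 899.7 CPM in controls and at 1369, 3576 and 2118 CPM in HLA→B6 grafts. The groups overlapped, since HLA→B6 mouse 1 was below control 2, but Fabp5 rose by 1.63 (SE 0.37) on the log2 scale, with an edgeR adjusted p of 0.02. Lpl was at 1170.3, 1307, 958, 1364 and 2415 CPM in controls and at 597, 278 and 946 CPM in HLA→B6 grafts. Each HLA→B6 graft was below each control, by a narrow margin between HLA→B6 mouse 3 and control 3, and control 5 was by far the highest. The log2 fold change of Lpl was -1.06 (SE 0.37) with an edgeR adjusted p of 0.0829, so the lower level did not pass the test.

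The proteases also went apart. Mmp12 was at 89, 182, 16.3, 26.5 and 15.1 CPM in controls and at 320.4, 214 and 375 CPM in HLA→B6 grafts. Control 2 was close to HLA→B6 mouse 2 while controls 3, 4 and 5 had little, and Mmp12 rose by 2.45 (SE 0.64) on the log2 scale, with an edgeR adjusted p of 0.0335. Ctsk was at 356, 367, 207, 249 and 392 CPM in controls and at 163, 118 and 104 CPM in HLA→B6 grafts, with no overlap. Ctsk changed by -1.05 (SE 0.24) on the log2 scale, with an edgeR adjusted p of 0.0219, and was the only gene of the list that fell past the threshold.

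**Figure D2:**
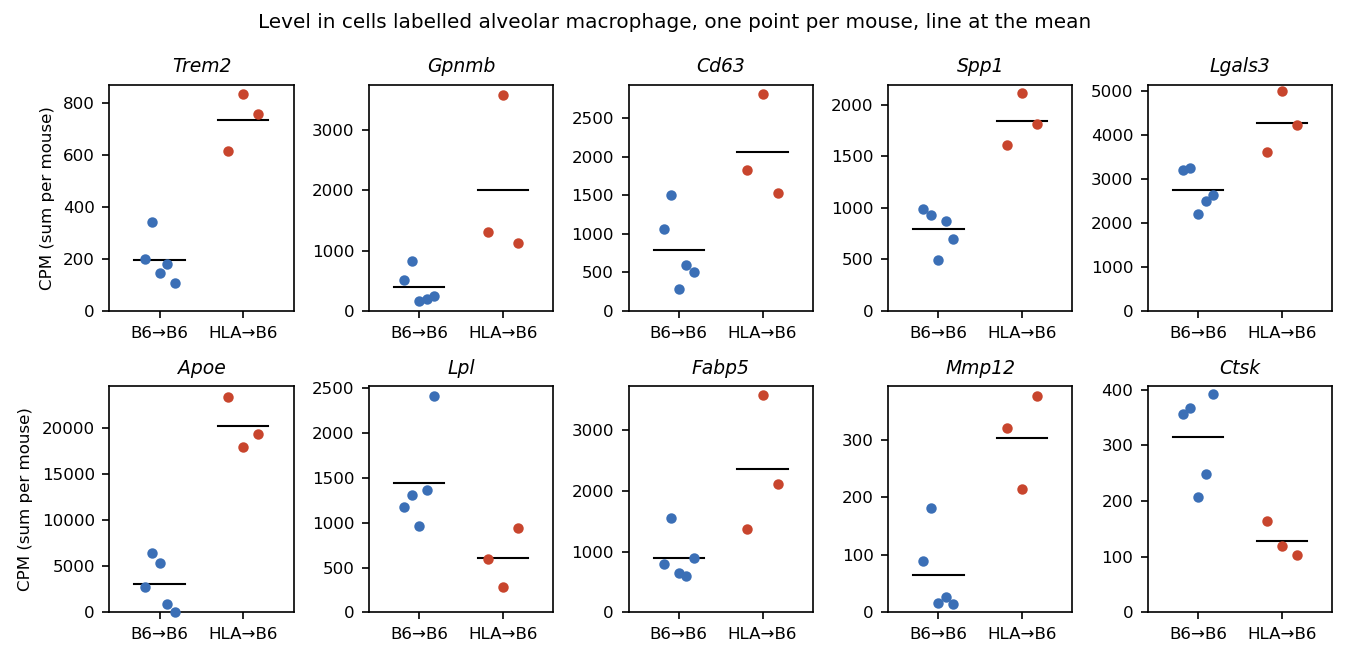
Level of each of the 10 genes in cells labelled AMs (CPM, linear axes from 0), with 1 point per mouse and a line at the group mean. HLA→B6 mice are above every B6→B6 mouse for 7 genes and below for Lpl and Ctsk, and the groups overlap for Fabp5.

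Single libraries decided part of these calls. Without HLA→B6 mouse 2, only Trem2 and Spp1 of the list passed the threshold; without control 1 it was Gpnmb, Lgals3, Spp1 and Trem2, and without control 4 Ctsk, Gpnmb, Spp1 and Trem2. Between 6 and 8 passed when any other mouse was left out. Trem2 and Spp1 passed in each of 18 alternative settings, with log2 fold changes of 1.96 to 2.64 for Trem2 and 1.28 to 2.75 for Spp1. Over the same settings Gpnmb passed in 17, Fabp5 in 15, Ctsk and Lgals3 in 14, Cd63 in 13, Mmp12 in 9, Apoe in 7 and Lpl in 5, and none changed direction. Without the cells that share a barcode, 9 genes passed, Apoe among them. Calls also rose over all genes there, to 986 of 5454 tested from 712 of 5798. In controls 1 and 2 some levels were lower without these cells, though not those of every listed gene. Gpnmb went from 518 and 827 CPM to 131 and 205 CPM, and Trem2 from 201 and 340 CPM to 116 and 174 CPM. Apoe went from 2743 and 6457 CPM to 584 and 3891 CPM.

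Markers of other cells were summed in the same AMs, and of the lists given here only the proliferation markers did not overlap between groups. The 10 interstitial macrophage markers, C1q genes among them, summed to 93.0 to 5486 CPM in controls and 4935 to 9573 CPM in HLA→B6 grafts, with 1 of 7 tested past the threshold (Ms4a7). The 7 monocyte markers summed to 75.4 to 620 CPM and 397 to 746 CPM, with Ly6c2 higher past the threshold. Neutrophil markers summed to 39.6 to 148 CPM in controls and 96.1 to 585 CPM in HLA→B6 grafts, with Ly6g at 0 in both. Proliferation markers summed to 84.6 to 188 CPM in controls and 30.8 to 61.5 CPM in HLA→B6 grafts. Hemoglobin genes (347 to 11937 CPM and 0.711 to 403 CPM) and epithelial markers (23.0 to 422 CPM and 1.36 to 53.2 CPM) overlapped. The part of these cells in the change of the 10 genes was not tested beyond the split that follows.

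Cells labelled AMs were split, after these values were seen, into those with at least 3 of the 15 AM markers and no C1q UMI, those with a C1q UMI, and the remainder. The first class made up 59.7, 43.3, 75.8, 96.8 and 90.5% of AMs in controls 1 to 5 and 34.0, 7.59 and 21.5% in HLA→B6 mice 1 to 3. Cells with a C1q UMI made up 27.7, 45.4, 20, 1.61 and 1.90% in controls and 61.8, 80.0 and 56.9% in HLA→B6 grafts. HLA→B6 AMs were thus mostly C1q cells and control AMs mostly not. A deeper cell has more chances of a C1q UMI, and the median depth of AMs ran from 803 to 3837 UMIs in controls and from 897.5 to 7144 UMIs in HLA→B6 grafts. In controls 1 to 5, C1q cells had medians of 530.5, 566, 2101.5, 2702 and 1971 UMIs, against 2594, 2479, 2111, 3005 and 3978 in the first class. In HLA→B6 mice 1 to 3 the medians were 3575, 7843 and 925.5, against 1944, 3366 and 4181. The part of depth in this split was not tested.

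The higher Trem2, Spp1 and Gpnmb of HLA→B6 grafts were also present within the class with at least 3 AM markers and no C1q UMI. That class held 95, 123, 144, 663 and 95 cells in controls 1 to 5, but 145, 39 and 28 in HLA→B6 mice 1 to 3. In HLA→B6 mouse 3 its cells held 56 Trem2 and 37 Gpnmb UMIs. Trem2 in this class was at 99.6, 168, 108, 173 and 105 CPM in controls and at 393, 809 and 499 CPM in HLA→B6 grafts. Spp1 was at 705, 776, 572, 876 and 713 CPM and 2416, 6522 and 3734 CPM, and Gpnmb at 130.3, 234, 155, 189 and 246 CPM and 903, 4458 and 329.7 CPM. None of the 3 overlapped between groups, and the gap of Spp1 was wider here than over all AMs. The share of all genes without overlap was not counted in this class. Apoe in this class had 0, 21, 0, 0 and 1 UMIs in controls 1 to 5 and 1100, 2071 and 277 UMIs in HLA→B6 mice 1 to 3, or 3206, 10035 and 2468 CPM. Fitted on this class alone, 7 genes passed the edgeR threshold with a higher level in HLA→B6 (Trem2, Gpnmb, Cd63, Spp1, Apoe, Fabp5 and Mmp12), and Lgals3, Lpl and Ctsk did not. Of all 4723 genes tested in this class, 153 were higher and 53 lower past the threshold.

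In the C1q class the groups overlapped for Apoe, Gpnmb and Spp1. Apoe there was at 22521, 23696, 18562 and 37414 CPM in controls 1 to 4, control 5 having fewer than 10 such cells, and at 30394, 19267 and 29714 CPM in HLA→B6 grafts, so that the groups overlapped. Gpnmb was at 2233, 1937, 43.2 and 322 CPM in controls 1 to 4 and at 1443, 3521 and 1566 CPM in HLA→B6 grafts, and C1q cells of controls 1 and 2, which share barcodes with other libraries, reached the HLA→B6 level. Spp1 was at 2390.5, 1336, 274 and 37.9 CPM in controls 1 to 4 and at 1311, 1961 and 1006 CPM in HLA→B6 grafts, with control 1 above every HLA→B6 graft. Controls 3 and 4 were below every HLA→B6 graft for Gpnmb and Spp1. Without the cells that share a barcode, all AMs of control 1 held 181 Spp1 UMIs. With them, its cells with AM markers and no C1q held 184 and its C1q cells 76. For control 2 the value was 204, against 259 and 160. The C1q class was not summed without those cells. Trem2 was at 472, 676, 173 and 455 CPM and 690.1, 870.4 and 911 CPM, without overlap. The share of all genes without overlap was not counted in the C1q class. Ctsk and Lpl were low in C1q cells, at 0 to 33.4 CPM and 56.9 to 225 CPM in controls, against 256 to 506 CPM and 1298 to 2461 CPM in control cells with AM markers and no C1q. In the controls these 2 genes were thus higher in the AM-marker class, and Apoe in the C1q class.

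The remainder, with under 3 AM markers and no C1q UMI, held few cells and was described without a test in the 6 mice with at least 10 of them (11 to 64 cells). Trem2 was at 1899.7, 1025 and 278 CPM in controls 1, 2 and 4 and at 626, 406 and 547 CPM in HLA→B6 grafts. Gpnmb was at 4939, 3390.2 and 0 CPM and 1653, 3686 and 821 CPM, and Spp1 at 3799, 1104 and 3331 CPM and 2905, 502 and 274 CPM. The groups overlapped for all 3 genes, and the median of the controls was the higher one for each, unlike in the AM-marker class. This class held 52 and 86 Gpnmb UMIs in controls 1 and 2, which share barcodes with other libraries. Without the cells that share a barcode, all AMs of these controls held 35 and 78. The high Gpnmb of these controls thus rested at least in part on such cells, and the class was not summed without them. Apoe was at 11018, 9225 and 1804 CPM and 7106, 8021 and 4064 CPM, also with overlap.

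**Figure D3:**
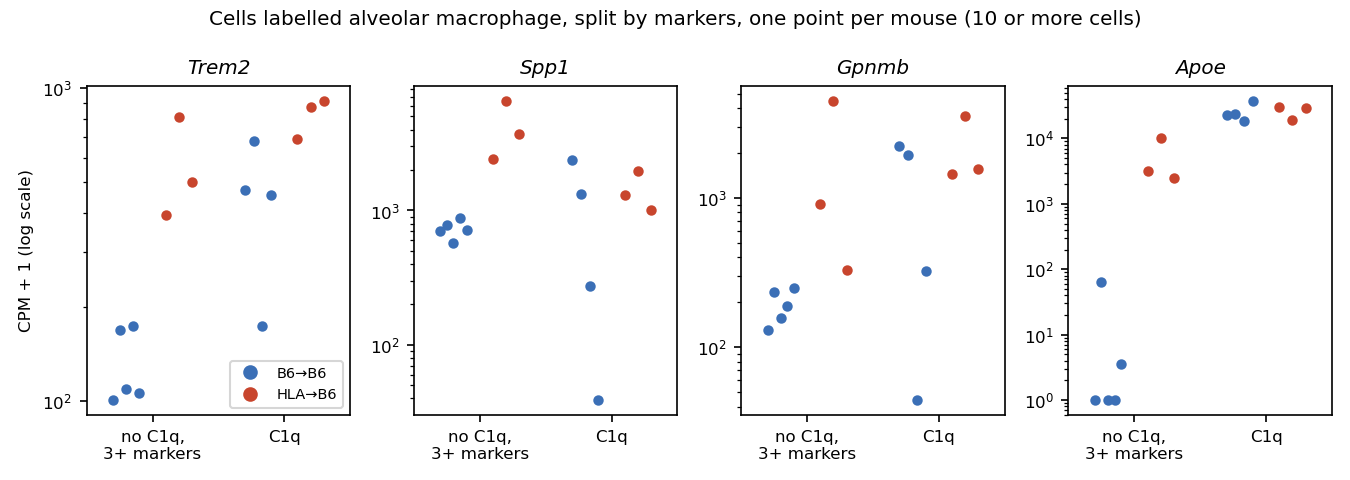
Level of Trem2, Spp1, Gpnmb and Apoe (CPM + 1, log axis) within cells labelled AMs, split into cells with at least 3 AM markers and no C1q UMI and cells with a C1q UMI, 1 point per mouse (the remainder is not drawn). Spp1 and Trem2 are higher in every HLA→B6 mouse within the AM-marker class without C1q, and Apoe is high in C1q cells of both groups. Spp1 overlaps between groups in C1q cells through controls 1 and 2, which share barcodes with other libraries.

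The share of AMs in which a gene was seen was compared at equal depth. Each cell with at least 1000 UMIs was thinned to 1000, as an expected value. Shallower cells were left out. In controls 1 to 5 this kept 91, 130, 160, 657 and 90 AMs of 159, 284, 190, 685 and 105. In HLA→B6 mice 1 to 3 it kept 365, 456 and 61 of 427, 514 and 130. C1q cells of controls 1 and 2 and HLA→B6 mouse 3 had medians of 530.5, 566 and 925.5 UMIs, so most were left out. Trem2 was then seen in 9.39, 17.1, 10.4, 15 and 9.62% of AMs in controls 1 to 5 and in 33.7, 44.7 and 48% in HLA→B6 mice 1 to 3. Gpnmb was seen in 9.29, 18.9, 11.8, 14.9 and 18% and 30.2, 69.4 and 42.7%, and Cd63 in 42.2, 49.3, 16.6, 37.3 and 34.4% and 67.1, 78.5 and 70%. For each of these 3 genes the HLA→B6 grafts were all above the controls, and in T cells, which should lack them, the shares were 0.0864, 0.502 and 0.479%. Apoe was seen in 1.1, 11.5, 12.3, 1.52 and 0.683% of control AMs and 61.8, 83.7 and 73.4% of HLA→B6 AMs, against 0.236% of T cells. Spp1 differed less in share than in level, with 28.4, 27.4, 31.2, 40 and 35.6% in controls and 42.8, 39.8 and 49.9% in HLA→B6 grafts, which overlap, against 2.56% of T cells. Cells with Spp1 held 1.5 to 2.92 UMIs of it on average in controls and 4.16 to 5.32 in HLA→B6 grafts, also after thinning to 1000 UMIs. Lpl was seen in 68.7, 67.2, 56.8, 64.1 and 82.8% of control AMs and 37.3, 18.9 and 46.9% of HLA→B6 AMs, so that fewer cells of every HLA→B6 graft showed it. Lgals3, which rose in level, overlapped in share, at 78.4 to 88.9% of control AMs and 79.6 to 92.7% of HLA→B6 AMs (exact permutation p = 0.393), against 7.19% of T cells.

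More of the 10 genes were seen per AM in HLA→B6 grafts, a count that rises with the share of each single gene and does not measure joint expression. At 1000 UMIs an AM showed on average 3.0, 3.44, 2.70, 3.10 and 3.39 of the 10 genes in controls 1 to 5 and 4.25, 5.2 and 5.10 in HLA→B6 mice 1 to 3. AMs with 5 or more of the genes made up 12.0, 21.4, 8.44, 15.1 and 19.1% in controls and 46.6, 69.9 and 66.9% in HLA→B6 grafts. These shares cover AMs with at least 1000 UMIs only. The groups did not overlap, with means of 15.2 ± 5.26% (SD, n = 5) and 61.1 ± 12.7% (SD, n = 3) and a difference of 45.9 percentage points. The exact permutation p was 0.0357, two-sided, the smallest possible with 3 against 5 mice, and 0.107 after Benjamini-Hochberg adjustment over AMs, monocytes and myeloid cells, which does not pass 0.05. The groups overlapped when cells were thinned to 500 UMIs (exact permutation p = 0.143) or not thinned (p = 0.0714). Without Apoe, 5 or more of the other 9 genes were seen in 28.9 percentage points more AMs of HLA→B6 grafts (exact permutation p = 0.0357, unadjusted). In monocytes at most 0.0109% and in myeloid cells at most 0.00855% of cells of any graft had 5 or more of the genes, and monocytes, at 1.41 to 1.62 genes per cell, showed mostly Apoe and Lgals3.

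**Figure D4:**
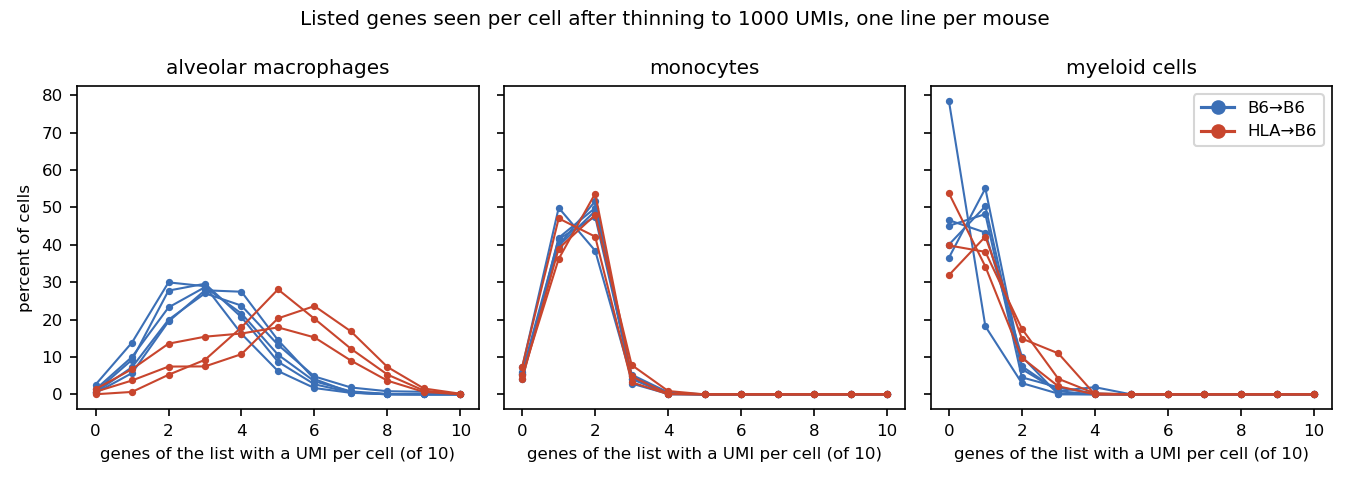
Percent of cells by number of the 10 genes seen after thinning each cell of at least 1000 UMIs to 1000, for AMs, monocytes and myeloid cells, 1 line per mouse. HLA→B6 AMs peak at higher numbers than B6→B6 AMs, and monocytes and myeloid cells of both groups stay at low numbers.

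Pairs of genes were examined in single AMs by the share of cells with both divided by the product of the single shares, within each mouse at 1000 UMIs, so that 1 stands for independence. The ratio is a description, because cells of 1 mouse share a library and deeper cells show more of every gene before thinning. The median over mice was above 1 in 36 of 45 pairs and 1.09 over all pairs. Gpnmb with Fabp5 (median 1.23) and Gpnmb with Cd63 (1.19) were above 1 in 8 of 8 mice, as were Trem2 with Fabp5 (1.14) and Cd63 with Fabp5 (1.12). Gpnmb with Ctsk reached 1.44 and was above 1 in 7 of 8 mice. Trem2 with Gpnmb had a median of 1.19 and Trem2 with Spp1 of 1.16, above 1 in 6 of 7 and 6 of 8 mice. By group, Gpnmb with Cd63 had medians of 1.28 in controls and 1.17 in HLA→B6 grafts, Gpnmb with Fabp5 1.26 and 1.21, and Trem2 with Cd63 1.13 in both. The pairs among Trem2, Gpnmb and Spp1 were a little higher in HLA→B6 grafts. Trem2 with Gpnmb had medians of 1.15 in controls and 1.19 in HLA→B6 grafts, Gpnmb with Spp1 1.06 and 1.17, and Trem2 with Spp1 1.16 and 1.17. The excess was therefore modest, and which group had the higher median differed by pair. Lgals3, seen in most AMs, had little room to exceed 1.

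Apoe was the exception. Apoe with Lpl had the lowest ratio of all pairs, 0.44, followed by Apoe with Ctsk at 0.55 and Apoe with Spp1 at 0.77. These pairs were above 1 in 0, 0 and 1 of 6 mice. In controls 2 to 4, the controls with enough Apoe for a ratio, the medians were 0.10, 0.23 and 0.07. In HLA→B6 grafts they were 0.81, 0.81 and 0.87. By the median of these controls, Apoe was thus seen with these genes less often than under independence. For Apoe with Spp1, control 2 was at 0.73. Apoe with Trem2 went the other way, at 1.54 and above 1 in 6 of 6 mice, with medians of 2.05 in controls 2 to 4, where few AMs had Apoe, and 1.17 in HLA→B6 grafts. Spp1 with Lpl was at a median of 1.48 in HLA→B6 grafts and 1.02 in controls.

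**Figure D5:**
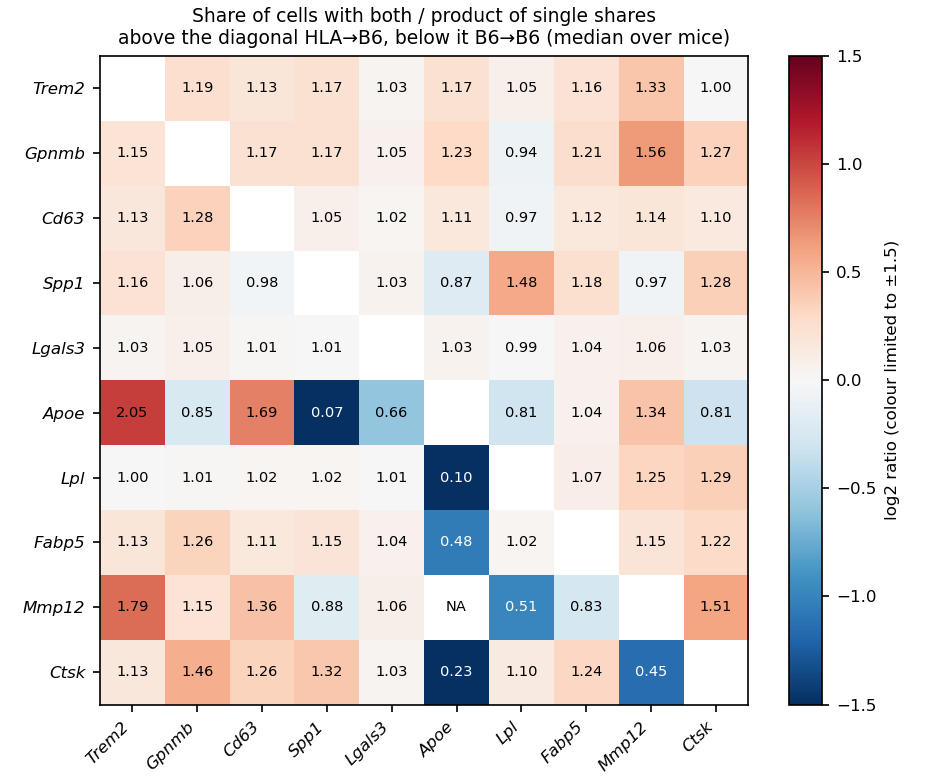
Ratio of observed to independent joint detection for the 45 pairs of genes in AMs, thinned to 1000 UMIs, as the median over mice, with HLA→B6 above the diagonal and B6→B6 below it, and the log2 ratio as colour. Most pairs are at or slightly above 1, and the B6→B6 values of Apoe with Lpl, Ctsk and Spp1 (0.10, 0.23 and 0.07) are well below it.

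AMs with at least 2 of Trem2, Spp1 and Gpnmb were compared with AMs that had none of the 3, blocked by mouse, in those 7 mice that had at least 10 cells of either kind. Only AMs with at least 1000 UMIs were used. The question was which other genes go with these 3 within a graft. Of the other 7 listed genes, 6 passed the filter on low counts, Mmp12 being too low, and Fabp5, Ctsk and Cd63 were higher past the threshold, against 0.851% of the 2351 genes tested. Fabp5 had a log2 fold change of 2.25 (SE 0.42) and an edgeR adjusted p of 0.0133, and was higher in 7 of 7 mice. Ctsk was at 1.75 (SE 0.37) (edgeR adjusted p = 0.0241) and Cd63 at 1.18 (SE 0.23) (edgeR adjusted p = 0.0151), higher in 6 and 7 of 7 mice. Lgals3 was at 0.71 (SE 0.18) and Lpl at 0.56 (SE 0.26), and neither passed the test. Apoe had a log2 fold change of -2.51 (SE 1.10) that did not pass the test and was 0.41 without blocking by mouse.

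The cells with at least 2 of the 3 genes were also the deeper ones in each mouse, for example 3376 against 2242.5 UMIs in the median of control 1 and 8575.5 against 3973.5 in that of HLA→B6 mouse 2. Among cells with 1000 to 3000 UMIs only, Fabp5 (log2 fold change 1.78) and Cd63 (1.00) passed the edgeR threshold and Ctsk (1.05) did not. Without HLA→B6 mouse 1 the 57 genes called became 18, and Fabp5, Ctsk and Cd63 had edgeR adjusted p of 0.0521, 0.106 and 0.0602. Of 2342 tested genes that are not on the list, 37 were lower, 23 of them in every mouse, and 14 were higher, 13 of them in every mouse. The 8 with the largest log2 fold changes were Mmp19, a matrix metalloproteinase (1.64), Igf1, a growth factor of repair macrophages (1.63), Fdps of cholesterol synthesis (1.36), Cd200r4 (1.12), the chemokine gene Ccl6 (1.02), Tnfrsf1b, a TNF receptor (1.01), Fth1, the ferritin heavy chain (0.97) and Mpc1, a carrier of pyruvate into mitochondria (0.91). Of the 23 lower in every mouse, the 4 largest falls were those of Tmem176b (-4.24), C1qa (-3.91), C1qb (-3.72) and Ifitm3 (-2.88).

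Monocytes, from which lung macrophages can be replaced, had no listed gene past the threshold. Of the 10, 4 passed the filter on low counts and 0 passed the edgeR threshold, against 0.023% of all 4352 genes (1 gene; 219 genes had an unadjusted p under 0.05, and DESeq2 called 15). Trem2 was at 36.7, 65.6, 63.3, 48.9 and 58.4 CPM in controls 1 to 5 and at 42.4, 54.7 and 43.9 CPM in HLA→B6 mice 1 to 3, with a log2 fold change of -0.33 (SE 0.25). The groups overlapped fully. Apoe was at 3903, 3807, 3491, 4640.5 and 3114 CPM and 3487, 6849 and 4862 CPM, with HLA→B6 mouse 2 the highest graft and a log2 fold change of 0.37 (SE 0.20). Lgals3 had a log2 fold change of -0.27 and Fabp5 of -0.16. The other 6 genes had 3 (Mmp12) to 128 (Lpl) UMIs in all 1968 monocytes and were not tested.

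The difference between the AM and the monocyte response was tested itself, as an interaction over 16 sums. Trem2 changed by 2.46 (SE 0.35) more on the log2 scale in AMs than in monocytes, with an edgeR adjusted p of 0.00288, against 2.4% of 6382 genes called. Trem2 passed in each of 12 alternatives, at 2.27 to 2.85. Lgals3 (1.13 (SE 0.28)), Fabp5 (1.70 (SE 0.45)) and Apoe (3.42 (SE 1.13)) had edgeR adjusted p of 0.0523, 0.0675 and 0.13 and did not pass. The remaining genes had too few monocyte counts to be read.

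Cells labelled myeloid cells were mixed across grafts. Dendritic cell markers had the highest median sum of all marker lists in both groups, but control 4 had 5335 CPM of T cell markers (in 77.6% of its cells), 1462 CPM of proliferation markers (in 68.8%) and 396 CPM of dendritic cell markers. In these cells 4 of the 10 genes passed the filter and 0 passed the edgeR threshold, against 0.0% of 4395 genes (215 had an unadjusted p under 0.05, and DESeq2 called 25). Apoe was at 35.2, 3.24, 0, 8.3 and 13.7 CPM in controls and at 165, 64.7 and 572 CPM in HLA→B6 grafts. The groups did not overlap, but the HLA→B6 values spread widely, and the log2 fold change of 4.77 (SE 0.84) had an edgeR adjusted p of 0.0773. Cd63 was at 11.7, 42.1, 147, 60.5 and 0 CPM in controls and at 251, 312 and 336 CPM in HLA→B6 grafts, again without overlap, with a log2 fold change of 2.21 (SE 0.56) and an edgeR adjusted p of 0.234. The share of all genes without overlap was not counted in myeloid cells. Both levels were a small part of those in AMs of the same grafts, and interstitial macrophage markers in the same cells summed to 87.8 to 399 CPM in controls and 342 to 689 CPM in HLA→B6 grafts, whose part was not tested. Without control 4, edgeR called 27 genes in place of 0, Apoe among them (adjusted p = 0.042), and without HLA→B6 mouse 2 it called 5, again with Apoe (adjusted p = 0.0212). Fabp5 (0.67) and Lgals3 (-0.51) had edgeR adjusted p of 0.999.

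Summed over all cells of a graft, where fewer cells of a type and less RNA per cell cannot be told apart, none of the 10 genes passed the edgeR threshold, against 0.0% of 11584 genes (815 had an unadjusted p under 0.05, and DESeq2 called 119). Trem2 was at 38.9, 64.3, 22.9, 53.3 and 24.4 CPM in controls and at 79, 339 and 111 CPM in HLA→B6 grafts, without overlap, with a log2 fold change of 2.24 (SE 0.49) and an edgeR adjusted p of 0.254. Gpnmb was at 95.9, 139, 23.1, 55.5 and 51.6 CPM and 151, 1453 and 159.9 CPM, and Apoe at 763, 1576, 1105, 529 and 299 CPM and 3603, 7854 and 3454 CPM. HLA→B6 mouse 2 stood far above the other grafts for both, and its AMs were 514 of its 3291 cells, against 427 of 6544 in HLA→B6 mouse 1. Every HLA→B6 graft was above every control for Trem2, Gpnmb, Apoe and Mmp12, against 0.932% of all genes, and below every control for Lpl. The share of all genes below every control was not counted for whole grafts. Apoe passed the threshold in 3 of 15 alternatives, and Trem2 and Mmp12 each in 1.

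The genes whose level was most like that of each listed gene were ranked by Pearson's r of log2(CPM + 1) over 69 sums of a mouse and a type, among 8089 genes. The sums share mice and types, so r is a description. Trem2 was nearest to F10 (r = 0.89), Msr1 (0.88) and Tfec (0.87), and Gpnmb to Igf1 (0.84), Plxna1 (0.78) and Gdf15 (0.75). Cd63 was nearest to Dmxl2 and Atp6v1g1 (both 0.71) and Cd9 (0.67), another tetraspanin. Spp1 was nearest to Angptl4 and Lrp12 (both 0.71) and Axl (0.70), Lgals3 to Ccl6 and Alox5ap (both 0.84) and Cd300a (0.83), and Apoe to Lgmn (0.78), Hpse and Gngt2 (both 0.73). The nearest genes of Lpl were Tcf7l2 (0.84), Myof and Gdf15 (both 0.83), and those of Fabp5 were Creg1 (0.84), Trf (0.82) and Ftl1 (0.81). Mmp12 and Ctsk had the same first gene, Atp6v0d2 (0.84 and 0.89), a subunit of the proton pump of lysosomes, followed by Lrp12 (0.78) and Syngr1 (0.77) for Mmp12 and by F7 (0.87) and Ear1 (0.86) for Ctsk.

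Other genes of the same pathways, from lists written with earlier results of these data known, were counted in AMs against the shares of all genes given above (6.36% higher and 5.92% lower). Lysosomal genes stood out by count, with 9 of 17 tested higher and 1 lower and a median log2 fold change of 0.91. Ctsb (1.84), Ctss (1.81) and Ctsz (1.5), all cathepsins, and Npc2 (1.43), which exports cholesterol from lysosomes, were the 4 largest rises, the most abundant genes Ctss and Psap (0.91) were among the 9, and Tfec (-0.98), a transcription factor of the MiT family, was the lower one. Of 8 tested genes of TREM2 signalling, 2 were higher: Tyrobp (0.63), the adaptor that carries the TREM2 signal, and Ms4a7 (2.64), which is also the interstitial macrophage marker that passed above, with a list median of 0.13. Of 15 tested genes of lipid uptake and efflux 0 were higher and 2 were lower, the scavenger receptor Marco (-3.68) and Pparg (-0.95), which are both AM markers as well, and the median was -0.23. The most abundant genes of that list, Cd9 (-0.64) and Plin2, which coats lipid droplets (0.27), did not pass the test. Of 11 tested genes of matrix and repair 3 were higher, Mmp14 (3.89), Pdgfa (3.53) and Timp2 (1.57), with a median of 0.64, while the most abundant, Chil3 (-1.59) and Fn1 (-0.88), did not pass. Of 5 tested receptors for the secreted products, Itgb5 (1.47) was higher and Cd44 (-1.03), an osteopontin receptor, lower, and the abundant Lrp1 (-0.37) did not pass. In monocytes, myeloid cells and whole grafts, 0 genes of these 5 lists passed the edgeR threshold.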

How the data were processed

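Single cells of 8 grafts (5 B6→B6 and 3 HLA→B6 mice) were measured by droplet sequencing. The authors deposited whole-number UMI counts per gene and cell, made with Cell Ranger on mm10 (GRCm38, per the submitters' processing notes) and labelled after clustering in Seurat, and state that free RNA was removed with SoupX. The sources used here do not say which counts, uncorrected or corrected, were deposited. A cell took its mouse and type from the deposited table of cells, and 0 columns of values were left unused.

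The 10 genes and all lists were chosen with earlier results of these data known. Counts were summed per mouse and type with at least 10 cells, normalized by TMM, filtered by filterByExpr (minimum count 10) and compared by edgeR 4.0.16 (quasi-likelihood, R 4.3.3) with Benjamini-Hochberg adjusted p under 0.05 over all genes tested. Shares of cells were compared by an exact permutation test over 56 splits of the mice (scipy 1.17.1), two-sided, after thinning cells of at least 1000 UMIs to 1000 as an expected value. Doublets were called by Scrublet in scanpy 1.11.5 (256 cells, 1.23%) and left out only as an alternative. The genes named are the 10 listed ones, per list up to 4 with the largest change past the threshold and the 2 most abundant, the 3 genes most like each listed gene, and for the classes by Trem2, Spp1 and Gpnmb the 8 largest rises and 4 largest falls seen in every mouse. Mast cells, B cells and structural clusters, and the marker genes named beside the lists, were chosen after their values were seen. Alternatives were DESeq2 1.42.0, no filter on low counts, a replicate or linked-library block, each mouse left out, at least 20 cells per mouse, at least 500 UMIs, doublets or shared barcodes left out, and other thinning and thresholds. The split by C1q and the fit on unlinked libraries alone were added after the data were seen. The edgeR steps were tested on simulated data. Totals of 1669076 to 12445769 UMIs per mouse limit genes with few counts. Thinning of cells evens counting depth only, and the p values of shares come from splits of mice.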

Additional observations from a re-analysis of the deposited data

Results flagged for a closer look

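In AMs, Lpl in control 5, at 2415 CPM, lay far above the other 4 controls, whose highest was 1364 CPM. In whole-graft sums, Ctsk in control 3, at 26.8 CPM, lay far below the other controls, which ran from 62.2 to 76.0 CPM. In monocytes, control 3 was the only control with any share of cells with 5 or more of the genes, at 0.00661%, a value near 0. These 3 values came from a test of the highest and lowest mouse in 30 groups of 5 controls, and chance marks about 1 in 20 such groups. The difference of Trem2 between HLA→B6 and B6→B6 grafts was larger in AMs than in monocytes by 2.46 on the log2 scale (edgeR's quasi-likelihood test of the interaction, adjusted p = 0.00288).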

How the results depend on the processing

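Counts of genes called moved more than single genes of the list. For AMs, 712 genes were called, and 1083 with no filter on low counts, 283 with a replicate block, 1253 with the linked libraries as a block, 206 among cells with at least 3 AM markers and no C1q UMI, and 180 to 829 when 1 mouse was left out. In monocytes 1 gene was called, and 15 by DESeq2, 98 with no filter, 10 with a replicate block, 5 with a linked block, 2 at 500 UMIs or more, 3 without doublets, 2 without shared barcodes and 1 to 6 with 1 mouse left out. In myeloid cells 0 were called, and 25 by DESeq2, 153 with no filter, 31 with a replicate block, 15 with a linked block and 0 to 27 with 1 mouse left out. In whole grafts 0 were called, and 119 by DESeq2, 7 with a replicate block and 92 with a linked block. The interaction called 153, and 410 with no filter, 254 without shared barcodes and 39 to 167 with 1 mouse left out. AMs with at least 2 of Trem2, Spp1 and Gpnmb differed in 57 genes, and in 378 with no filter, 6 with no mouse as a block, 19 at 1000 to 3000 UMIs and 18 to 73 with 1 mouse left out. The cause of these moves was not tested.

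Reversed were Apoe in the last comparison without the mouse as a block (0.41 on the log2 scale), the share of monocytes with 5 or more of the genes (a difference of 0.00280 percentage points, -0.000572 to 0.00486 with 1 mouse left out) and that of myeloid cells with 4 or more (-0.336 percentage points). The difference in the share of AMs with 5 or more of the genes, 45.9 percentage points, stayed positive in each alternative, at 41.5 to 53.2 with 1 mouse left out, but the groups overlapped after thinning to 500 UMIs (20, exact permutation p = 0.143) and without thinning (28.5, p = 0.0714). It was 47.1 within replicate numbers as a block (exact permutation p = 0.25). Shared replicate numbers did not pair the mice: in AMs the same-numbered mice correlated at -0.0471, 0.314 and -0.248, and only number 2 was nearest to its own number. With the replicate block 7 listed genes were called in AMs, Apoe gained and Lgals3 and Mmp12 lost. No fit of monocytes or myeloid cells by Trem2, Spp1 and Gpnmb was possible, since too few cells had 2 of them. With 3 against 5 mice a single exact test cannot go below 0.0357, and genes with a few UMIs in monocytes or myeloid cells were below what these depths can compare.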

Other observations

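With the unlinked libraries alone (controls 4 and 5 and HLA→B6 mice 1 and 3), a setting chosen after the data were seen, edgeR's quasi-likelihood test called all 10 listed genes in AMs at an adjusted p under 0.05, 8 higher and 2 lower in HLA→B6. Of all 7504 genes tested in that setting, 596 were called, 386 higher and 210 lower. The same 10 were called with the linked set as a block, where 1253 of all 5798 genes were called, 630 higher and 623 lower. In the other order, the fit without HLA→B6 mouse 2 called 2 of the listed genes, and 180 of all 6165 genes.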
